A study of Mus musculus with 4 samples.

Results

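The 40 genes described here make, fold and send out secreted proteins at the endoplasmic reticulum (ER), and they were followed in cells from mouse mammary lesions, mammary tumors and lungs. They were taken by name, not by their values, from the 27998 genes counted in each library. They fall into 11 chaperones of the ER lumen, 5 disulfide and prolyl isomerases, 6 stress factors, 8 genes of the translocon and its associated TRAP complex, 3 of the signal peptidase, 4 of the oligosaccharyltransferase and 3 of ER exit, retrieval and degradation. All 40 had UMIs (unique molecular identifiers, each standing for 1 captured RNA molecule) in the tumor and in the lesion, and 39 had them in all 4 libraries. The comparisons set the lumen chaperones against the stress factors Xbp1, Ddit3, Atf4 and Herpud1 and against the translocon genes, first between lesion and tumor, then between tumor cells at or below and above 1% mitochondrial UMIs, and then by the level of milk protein genes.

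All mice were MMTV-HER2/Neu animals on the FvB background, in which the promoter of mouse mammary tumor virus drives the neu (Erbb2) oncogene in mammary epithelium. No other treatment or allele is named in the labels, and no animal without the transgene was included. At an early stage, in mice aged 14 to 18 weeks in which no tumor could be felt, cells came from the mammary gland (early lesion) and from the lung (early lung); at a late stage, over 20 weeks of age with a primary tumor, they came from the tumor and from the lung (late lung). Cells were sorted as CD45 negative and HER2 positive, and 1 droplet library (10x Chromium, 3' counting) was made for each of the 4 groups. How many mice went into a library is not given in the sources used here, so each comparison sets 1 library against 1 library, no replicate checks it and no p-value can be given.

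The ER takes in nascent secretory and membrane proteins through the Sec61 translocon, cuts off their signal peptide, adds sugar chains and folds them with chaperones and isomerases before carriers take them on to the Golgi. When unfolded protein builds up, the sensors IRE1, PERK and ATF6 start the unfolded protein response: IRE1 splices Xbp1, PERK raises Atf4 and with it Ddit3 (CHOP) and Trib3, and ATF6 and XBP1 act on chaperone promoters. Secretory mammary epithelium, which exports large amounts of casein and whey protein, is known for a large ER.

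Promoters are shown first, and their part in the levels and calls below was not tested. RefSeq windows from 250 bases before to 50 bases after the start of each gene (GRCm38.p6) were found for 33 of the 40 members. The ER stress element, searched on both strands as CCAAT and CCACG with 9 bases of any kind between them, stood in the windows of 7 of the 33 (21.2%), against 37 of 27025 genes in all (0.137%). It was present in 6 of the 9 lumen chaperones with a window (Hspa5, Hsp90b1, Calr, Canx, Creld2 and Dnajc3), in 1 of the 5 isomerases (Pdia6) and in 0 of the 19 other members with a window. Each stretch below is written 5′ to 3′ along the gene's strand, and capitals mark the outer letters of the element, or their reverse complement (CGTGG and ATTGG) where it lies in the opposite orientation.
Hspa5, chr2:34772019-34772049, plus strand: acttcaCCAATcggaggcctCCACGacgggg
Hsp90b1, chr10:86705527-86705662, minus strand: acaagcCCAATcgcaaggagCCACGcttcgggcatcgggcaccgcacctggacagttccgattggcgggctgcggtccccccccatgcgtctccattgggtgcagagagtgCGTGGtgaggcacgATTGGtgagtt
Calr, chr8:84847069-84847099, minus strand: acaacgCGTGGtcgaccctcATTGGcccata
Canx, chr11:50325794-50325824, minus strand: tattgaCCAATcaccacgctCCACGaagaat
Creld2, chr15:88819514-88819544, plus strand: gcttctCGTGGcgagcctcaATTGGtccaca
Dnajc3, chr14:118937821-118937851, plus strand: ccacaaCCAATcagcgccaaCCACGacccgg
Pdia6, chr12:17266485-17266515, plus strand: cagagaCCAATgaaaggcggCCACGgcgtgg
Hsp90b1 carried the element in both orientations within 136 bases. Other motifs of this response, TGACGTGG and TGATGNAAT, had no match in the 33 windows, where 0.714% and 1.08% of all genes had one. A match describes letters in a window and not a bound site, and the lack of one says only that these letters are not in that window. Sdf2l1, Herpud1, Trib3, Xbp1, Ddit3 and Atf4 were among the genes whose windows held none of the 3 motifs.

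The filters kept 185 early lung, 210 late lung, 1318 lesion and 434 tumor cells, with median depths of 772, 811, 2360 and 1657.5 UMIs, and no cell barcode was shared between libraries. In the tumor library, 18 cells with over 10000 UMIs held 54.5% of all UMIs, against 6.5% held by 21 such cells in the lesion, so tumor values are given with and without the cells of that depth. The tumor had 132 cells above 1% mitochondrial share and 302 at or below it; 17 of the 18 deepest cells were above. The sorted cells were checked against markers: luminal keratin and adhesion genes summed to 6928 CPM (UMI counts per 1000000 UMIs) in the lesion and 4550 in the tumor but to 1296 and 1175 in the early and late lung, where airway secretory genes summed to 114520 and 85222. Of genes that mark other secretory cells, Aqp5, a water channel of salivary and lacrimal acini, stood at 25.2 CPM in the lesion, 3471 in the tumor and 1517 in the tumor without its deepest cells. The acinar markers Car6 (20.4, 232 and 173 CPM in the same order), Prol1 (0.25, 42.2 and 47.0) and Bhlha15 (6.62, 38.3 and 32.5) were also higher in the tumor. The other 6 measured genes of the list (Smr3a, Dcpp1, Dcpp2, Lpo, Amy1 and Bpifa2) and the plasma cell genes Jchain and Mzb1 were at 0 there. Dcpp1, Dcpp2 and Bpifa2 were at 0 in the called cells of every library. The part of acinar genes in the results was not tested. RNA in droplets with 1 to 50 UMIs, which stands for free RNA, held the 40 genes at 0.624% to 0.753% of UMIs, close to their share in called cells of the lungs and lesion.

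The 40 genes together made up 0.939% (0.925% to 0.953%) of tumor UMIs, 0.732% (0.723% to 0.740%) of lesion UMIs, 0.716% (0.690% to 0.742%) in late lung and 0.654% (0.619% to 0.690%) in early lung. Without its deepest cells the tumor value was 0.672% (0.655% to 0.690%). Of these shallower cells, the 115 above 1% mitochondrial share gave 1.04% (0.982% to 1.09%). The 301 at or below 1% gave 0.605% (0.586% to 0.623%). Intervals here and below are exact 95% intervals (Clopper-Pearson for shares, Poisson for levels) and cover counting error only.

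**Figure D1:**
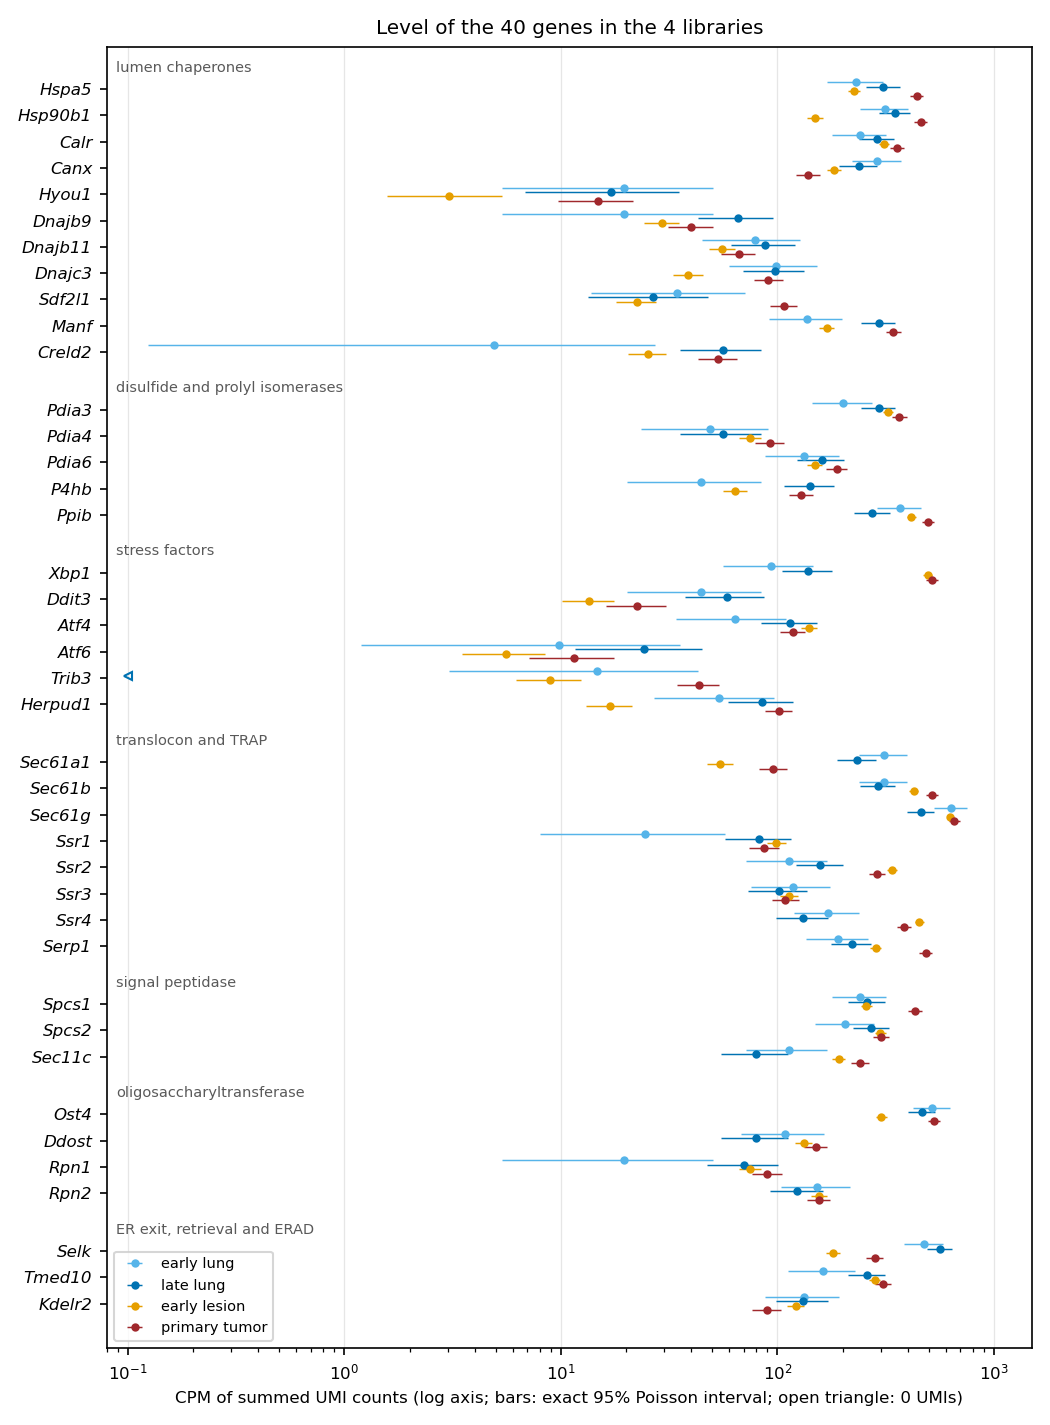
Level of each of the 40 genes in the 4 libraries, as CPM of the summed counts on a log axis, with exact 95% Poisson intervals; an open triangle marks a count of 0. Hsp90b1 stood at 149 CPM in the lesion and 459 in the tumor, while Xbp1 stood at 495 and 520.3.

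Among the lumen chaperones, the tumor sum was above the lesion sum for most genes, and for 5 of the 11 (Hspa5, Hsp90b1, Calr, Dnajb9 and Dnajb11) this turned round once the 18 deepest tumor cells were left out. Hspa5 (BiP, the Hsp70 of the ER lumen; chr2:34771970-34777547 in mm10) stood at 231 CPM in early lung cells, 308 in late lung, 227 (212 to 242) in lesion cells and 439 (409 to 471) in the tumor. Hsp90b1 (GRP94, the Hsp90 of the ER; chr10:86690209-86705509) stood at 314, 349, 149 (137 to 162) and 459 (428 to 491) CPM in the same order. For both genes the tumor value lay above that of every other library. Without cells of over 10000 UMIs, the tumor values were 134 CPM for Hspa5 and 111 for Hsp90b1, below the lesion. The log2 ratio of tumor to lesion was 0.95 (0.81 to 1.09) for Hspa5 with all cells and -0.75 (-1.06 to -0.47) without the deepest, and for Hsp90b1 it was 1.62 (1.47 to 1.78) and -0.42 (-0.76 to -0.11). A single tumor cell held 21.2% of the tumor's Hspa5 UMIs.

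The lectin chaperones Calr and Canx, which hold glycoproteins during folding, differed less between the libraries as a whole. Calr (chr8:84841850-84846934) stood at 241 CPM in early lung cells, 289 in late lung, 310.5 in lesion cells and 357 in the tumor. Canx stood at 289.7, 238, 183 and 139 CPM. The tumor to lesion log2 ratios were 0.20 (0.06 to 0.34) for Calr and -0.40 (-0.61 to -0.19) for Canx; without the deepest cells both were lower in the tumor by more than 2-fold, at -1.44 (-1.77 to -1.14) and -1.31 (-1.72 to -0.94).

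Sdf2l1, a partner of the J-domain chaperones of the ER (chr16:17130138-17132383), did not follow this turn. It stood at 34.4 CPM in early lung cells, 26.7 in late lung, 22.4 (18.0 to 27.6) in lesion cells and 107 (92.8 to 123) in the tumor, and at 65.1 in the tumor without the deepest cells. Its log2 ratio of tumor to lesion was 2.26 (1.89 to 2.64) with all cells and 1.69 (1.16 to 2.22) without the deepest. Dnajc3, a J-domain co-chaperone of BiP also known as P58IPK, stood at 98.2, 97.1, 38.7 and 90.9 CPM in early lung, late lung, lesion and tumor. Its ratio was 1.23 (0.91 to 1.56), and 0.16 (-0.44 to 0.70) without the deepest cells. Hyou1, a nucleotide exchange factor of BiP, had few counts in each library, at 19.6, 17.0, 3.06 and 14.8 CPM, with 12 UMIs in the lesion and 27 in the tumor and a ratio of 2.24 (1.25 to 3.39). Manf, a small stress-induced protein of the ER lumen, stood at 138, 294, 169 and 343 CPM, and Creld2, another stress-induced lumen protein, at 4.91, 55.8, 25.2 and 53.1. Their ratios of 1.02 and 1.08 with all cells became 0.38 and 0.02 without the deepest. The remaining J-domain proteins, Dnajb9 (29.3 CPM in the lesion, 40 in the tumor) and Dnajb11 (55.5 and 66.3), differed by less than 2-fold.

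A gene was called different where its ratio was at least 2-fold with an interval that excluded a ratio of 1, among genes with at least 20 counts over both sums. Of 9811 genes so compared between tumor and lesion, 24.5% were called higher in the tumor and 6.68% lower, and the median log2 ratio was 0.33. Of the 40 members, 10 were called higher and 0 lower, with a median of 0.32; this share is near the background. Median-of-ratios scaling left 19.3% of genes higher and 9.53% lower, and 5 members higher and 0 lower. Lumen chaperones made up 6 of the 10 (Herpud1, Trib3, Atf6 and P4hb were the rest), and their median over all 11 genes was 1.02. Without cells of over 10000 UMIs, 13.3% of 8724 genes were called higher and 9.35% lower, and of 39 members 6 were called higher and 8 lower, with a median of -0.43 beside 0.16 in all genes. Of the 40 members, 18 turned from above to below the lesion and 1 turned the other way. The share of a chaperone's tumor UMIs that came from the 18 deepest cells ran from 70.9% (Manf) to 89.0% (Hsp90b1), against 54.5% of all UMIs.

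**Figure D2:**
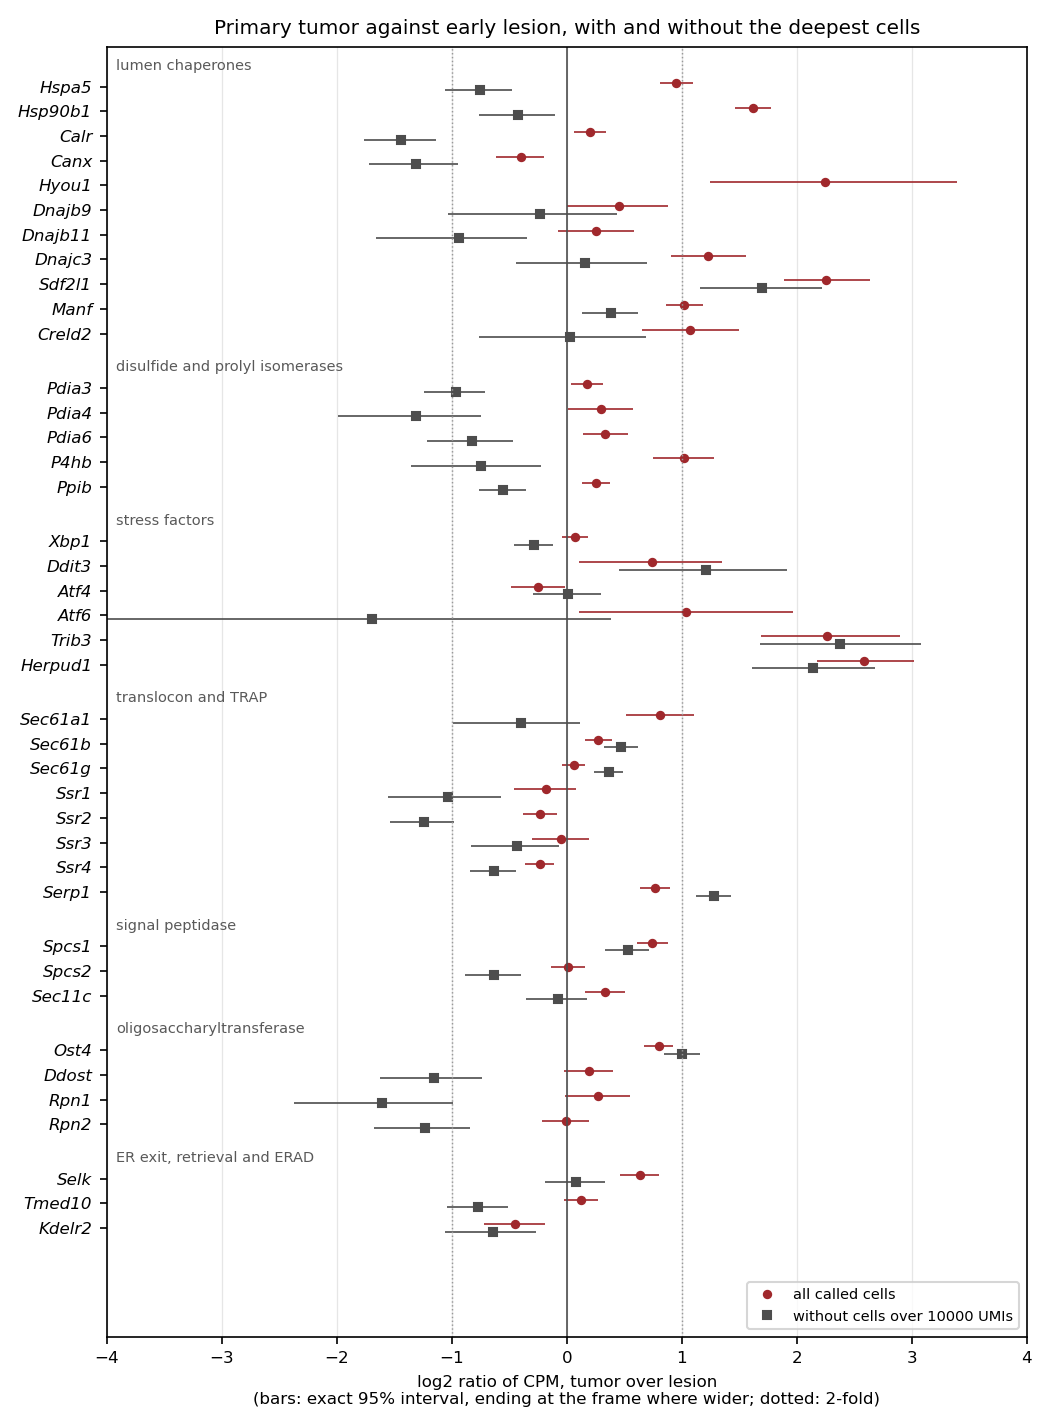
Log2 ratio of tumor to lesion CPM for each member, with all called cells (circles) and without cells of over 10000 UMIs (squares), and exact 95% intervals; dotted lines mark a 2-fold difference. Herpud1, Trib3 and Sdf2l1 were called higher both ways, while Calr and Canx moved to at least 2-fold lower without the deepest cells.

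The isomerases, which form and shuffle disulfide bonds or turn proline peptide bonds, followed the same turn. Ppib (cyclophilin B, a prolyl isomerase) stood at 368 CPM in early lung cells, 274 in late lung, 416 in lesion cells and 496 in the tumor. Pdia3, the partner of Calr and Canx, stood at 201, 294, 324 and 366 CPM. Pdia6 stood at 133, 160.2, 149 and 188 CPM. None of these 3 differed by 2-fold between lesion and tumor, and their log2 ratios went from 0.25, 0.18 and 0.34 with all cells to -0.55, -0.97 and -0.82 without the deepest. P4hb, protein disulfide isomerase itself, was called higher in the tumor with all cells (63.7 against 129 CPM, log2 ratio 1.02) but stood at 37.3 CPM without the deepest, and Pdia4 was then called lower at -1.31 (-1.99 to -0.75).

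The 6 stress factors did not all move one way. With all cells 5 lay above the lesion, and without the deepest 4 did. Their median log2 ratios were 0.89 and 0.61, against 1.02 and -0.33 for the lumen chaperones and 0.33 and 0.16 for all genes. Herpud1, a membrane protein of ER-associated degradation that is induced by ER stress (chr8:94386438-94395377), stood at 54.0 CPM in early lung cells, 84.9 in late lung, 16.8 (13.0 to 21.4) in lesion cells and 101 (87.2 to 117) in the tumor. It was lowest in the lesion, whose interval did not reach that of any other library. Its tumor to lesion log2 ratio was 2.58 (2.18 to 3.02), and 2.15 (1.61 to 2.68) without the deepest cells. Trib3, a pseudokinase downstream of Atf4 and Ddit3 (chr2:152337422-152344032), stood at 14.7 CPM in early lung cells, 8.91 in the lesion and 43.3 in the tumor, with a count of 0 in late lung, where 3 counts would be 7.28 CPM. Its tumor to lesion ratio was 2.27 (1.69 to 2.90), and 2.38 (1.68 to 3.08) without the deepest cells.

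Xbp1, whose product acts on chaperone and degradation genes (chr11:5520659-5525893), stood at 93.3 CPM in early lung cells, 138 in late lung, 495 (473 to 517) in lesion cells and 520.3 (488 to 554) in the tumor. Gene counts do not separate its spliced from its unspliced form. Lesion and tumor overlapped, with a log2 ratio of 0.07 (-0.04 to 0.19), and both lungs lay far below them. Ddit3 (CHOP; chr10:127290774-127296288) stood at 44.2, 58.2, 13.5 and 22.5 CPM. Atf4, the transcription factor of the PERK arm (chr15:80255184-80257541), stood at 63.8, 114, 139.8 and 118 CPM. Their tumor to lesion ratios were 0.74 (0.11 to 1.35) and -0.25 (-0.48 to -0.02), neither reaching 2-fold; without the deepest cells Ddit3 was called higher at 1.21 (0.46 to 1.91) and Atf4 stood at 0.01. Atf6 had 22 UMIs in the lesion and 21 in the tumor, and 20 of the 21 tumor UMIs lay in the deepest cells.

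Of the 4 stress factors in the comparison, 1 of 4 was called higher with all cells (Herpud1), which is near the 24.5% of all genes. Without the deepest, 2 of 4 were (Herpud1 and Ddit3), beside 13.3%. Of the other stress factors, Trib3 was called higher both ways and Atf6 with all cells only. Immediate-early and dissociation genes, which tissue handling can raise, summed to 3349 CPM in the lesion and 893 in the tumor; Atf3, an Atf4 target that is also among them, stood at 79.7 CPM in the lesion (313 UMIs) and 2.74 in the tumor (5 UMIs). Their part in the differences was not tested.

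Translocon genes were nearly level between the libraries of the mammary gland. Sec61g, a small subunit of the Sec61 channel, stood at 633 CPM in early lung cells, 461 in late lung, 630.3 in lesion cells and 657 in the tumor. Sec61b, the other small subunit, stood at 309, 291, 427 and 516 CPM. Ssr4, a subunit of TRAP, stood at 172, 131, 453 and 385 CPM. Of the 8 genes, 0 were called between tumor and lesion, and their median log2 ratio was 0.00, or -0.23 under median-of-ratios scaling, which moved the median of all genes from 0.33 to 0.09. The TRAP genes Ssr1, Ssr2 and Ssr4 were among the 6 members with the lowest ratios, at -0.18, -0.23 and -0.23, all short of 2-fold. Once the deepest cells were left out, Serp1 (RAMP4, a small protein at the translocon) was called higher at 1.28 (1.13 to 1.43), and Ssr1 and Ssr2 were called lower at -1.03 and -1.25. The 2 small Sec61 subunits then stood at 0.36 and 0.48.

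Signal peptidase genes differed by less than 2-fold between lesion and tumor. Spcs1, an accessory subunit, stood at 241, 259.7, 258 and 432 CPM in early lung, late lung, lesion and tumor, Spcs2 at 206, 272, 299 and 300.1, and the catalytic subunit Sec11c at 113, 80.1, 192 and 242. Of the oligosaccharyltransferase, which adds sugar chains to nascent protein, the small subunit Ost4 stood at 516, 466, 303 and 527 CPM, Rpn2 at 152, 124, 156 and 155, and Ddost at 108, 80.1, 132 and 151. These subunits parted without the deepest cells: Ost4 was called higher in the tumor at 1.0 (0.85 to 1.16), while Rpn1, Rpn2 and Ddost were called lower at -1.61, -1.23 and -1.15. At ER exit, the cargo receptor Tmed10 (281.9 CPM in the lesion, 307 in the tumor) and the KDEL receptor Kdelr2 (122 and 89.3), which returns lumen proteins, were not called either way. Selk, a selenoprotein of ER-associated degradation, was highest in the lungs at 476 and 563 CPM, and stood at 182 in the lesion and 281.5 in the tumor. Coding length moved with the tumor to lesion ratios without the deepest cells. Over 39 members, log2 ratio and log coding length correlated by -0.49 (Pearson) and -0.59 (Spearman), beside -0.07 and -0.13 over 8517 genes. The median ratio was 0.50 for the 6 members with under 500 coding bases and -0.88 for the 18 with 1000 to 2000. In all genes of those lengths it was 0.46 and 0.04. The part of length was not tested.

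The ratio of chaperone to translocon UMIs needs no scaling to library size. There were 50.5 (48.8 to 52.3) lumen chaperone UMIs per 100 translocon UMIs in the lesion, 80.4 (77.1 to 83.9) in the tumor and 31.3 (28.7 to 34.1) in the tumor without its deepest cells, so the tumor lay above or below the lesion according to whether those 18 cells were counted. In the lungs the ratio was 78.5 (67.2 to 91.5) early and 109 (98.0 to 121) late. Between lesion and tumor, the 4 stress factors were steadier against the translocon, at 27.7 per 100 in the lesion, 29.1 in the tumor and 24.2 without the deepest cells. In the lungs they stood at 13.6 (10.0 to 18.3) early and 23.6 (19.7 to 28.0) late. Xbp1 made up most of this sum in lesion and tumor, so the sum there shows mainly Xbp1.

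Related genes outside the 40 were, in the 3 longest lists, called higher in the tumor about as often as all genes (24.5% higher, 6.68% lower). The degradation, folding and translocon lists held more lower than higher calls without the deepest cells (13.3% and 9.35% of all genes). Of 18 measured genes of ER-associated degradation, 5 were called higher and 0 lower in the tumor with all cells, among them Sel1l, Edem3 and Syvn1, parts of the degradation machinery, at 3.39, 2.36 and 2.24. Of 25 other folding genes 6 were called higher and 0 lower (Uggt1, the glycoprotein folding sensor, 2.88), and of 37 carrier genes between ER and Golgi 10 were higher and 1 lower (Lman1, a cargo lectin, 1.86). Leaving out the deepest cells, these counts were 2 higher and 4 lower of 15, 1 higher and 9 lower of 24, and 2 higher and 1 lower of 36. Other targets and sensors of the stress response gave 3 higher (Trib1 and Vldlr among them) and 2 lower of 10 either way, with Trib1 at 3.28 and 2.64. Of 7 other translocon and signal peptidase genes 3 were higher and 0 lower, then 0 higher and 3 lower; 8 other oligosaccharyltransferase genes gave no call either way, and 7 of the signal recognition particle gave 0 and then 1 lower.

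Within the tumor, the lumen chaperones stood far higher in cells above 1% mitochondrial share than in cells at or below it. The isomerases and the larger oligosaccharyltransferase subunits stood higher with them. Of the stress factors, Herpud1 and Atf6 were called higher, and Xbp1, Ddit3, Atf4 and Trib3 were not called. The summed 4 stress factors of the comparison stood at 583 CPM (528 to 642) at or below 1% and 876 (822 to 933) above. Hspa5 stood at 63.2 CPM (46.1 to 84.6) in the 302 cells at or below 1% and at 679.6 (632 to 729.8) in the 132 cells above. Hsp90b1 stood at 61.8 (44.9 to 83.0) and 713 (664 to 764), and Calr at 67.4 (49.7 to 89.4) and 542 (499.9 to 587). The lesion as a whole, at 227, 149 and 310.5 CPM for these genes, lay between both parts of the tumor. The log2 ratios of the parts were 3.41 (2.99 to 3.89) for Hspa5, 3.51 (3.09 to 4.0) for Hsp90b1 and 2.99 (2.58 to 3.46) for Calr.

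Of 7487 genes compared between the parts, 25.9% were called higher above 1% and 6.68% lower, with a median log2 ratio of 0.06. Of the 40 members 27 were called higher and 1 lower, with a median of 1.69. By role, 11 of 11 chaperones were called higher (median 2.54), 5 of 5 isomerases (2.34), 3 of 4 oligosaccharyltransferase genes (2.74), 4 of 8 translocon genes (0.90), 2 of 6 stress factors, 1 of 3 signal peptidase genes and 1 of 3 genes of ER exit. The smallest chaperone ratios were those of Sdf2l1, at 1.09 (0.61 to 1.61), and Manf, at 1.13 (0.86 to 1.42).

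Pdia4 gave the largest ratio among the isomerases, with 11.2 CPM at or below 1%, 144 above, and a log2 ratio of 3.59 (2.66 to 4.91). P4hb followed at 2.83, Pdia6 at 2.34, Pdia3 at 2.11 and Ppib at 1.73. Among the stress factors, Herpud1 stood at 53.4 and 132 CPM, a ratio of 1.29 (0.78 to 1.86), and Atf6 had 0 and 21 UMIs, at least 4.47-fold higher above 1%. Xbp1 stood at 353 and 628 CPM, or 0.83 (0.62 to 1.05), which did not reach 2-fold. Ddit3 stood at 28.1 and 18.9 CPM, Atf4 at 149 and 97.9 and Trib3 at 46.3 and 41.3, with ratios of -0.58 (-1.53 to 0.38), -0.61 (-1.0 to -0.21) and -0.17 (-0.84 to 0.52).

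The translocon genes parted from one another. Sec61a1, the channel itself, and the TRAP subunits Ssr1, Ssr2 and Ssr3 were called higher above 1%, at 1.73, 1.62, 1.85 and 1.16. Serp1 was called lower, from 728 to 329 CPM, a ratio of -1.15 (-1.34 to -0.95), and Sec61g (867 and 522 CPM) and Sec61b (619 and 451 CPM) stood lower by less than 2-fold. The oligosaccharyltransferase parted likewise: Ddost, Rpn2 and Rpn1 stood at 2.99, 2.76 and 2.73, and Ost4 at -0.45 (-0.64 to -0.27). Of the rest, Spcs2 and Tmed10 were called higher at 1.29 and 1.66, and Spcs1, Sec11c, Selk and Kdelr2 lay between 0.50 and 0.97.

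**Figure D3:**
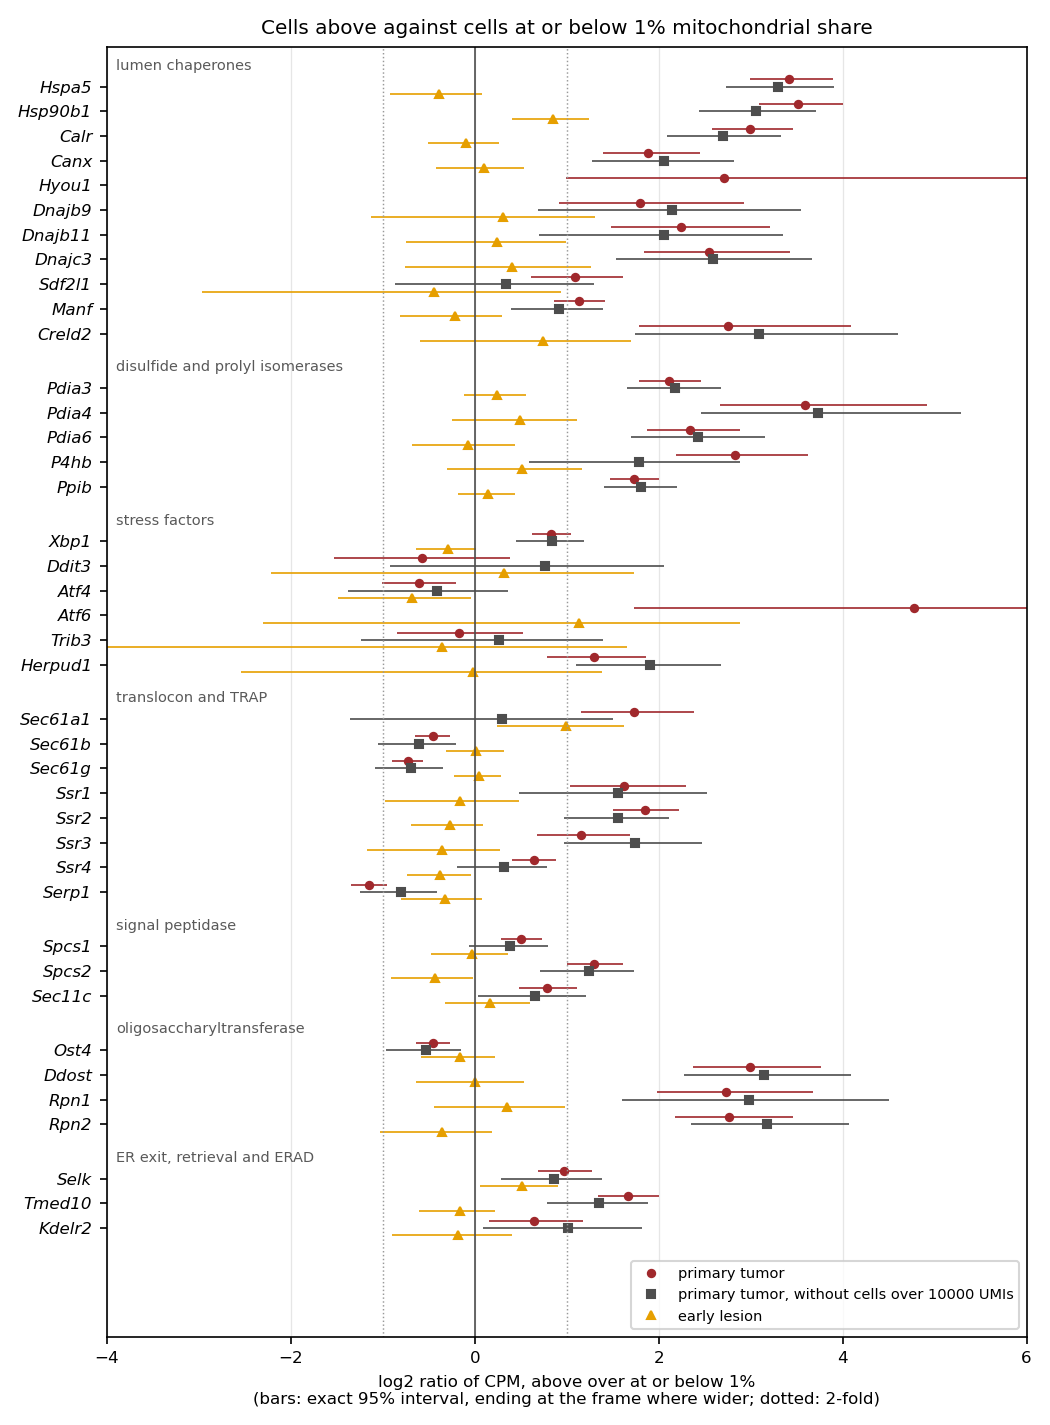
Log2 ratio of CPM in cells above 1% mitochondrial share to cells at or below it, for each member in the tumor (circles), in the tumor without cells of over 10000 UMIs (squares) and in the lesion (triangles), with exact 95% intervals. Hspa5 stood at 3.41, 3.30 and -0.38 in the 3 sets.

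This pattern did not rest on the deepest cells. Without them, 8.81% of 4266 genes were called higher above 1% and 5.77% lower, and of 38 members 23 were called higher and 0 lower, with a median of 1.56 beside -0.23 in all genes. Hspa5 was at 3.30 and Hsp90b1 at 3.06. Sdf2l1 (0.34), Manf (0.91), Sec61a1 (0.29) and Serp1 lost their calls. Within the cells above 1%, 2 of 40 members were called higher in the 17 deepest than in the 115 shallower and 0 lower, where 3.81% and 2.55% of all genes were, and the median was 0.08.

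Members were not called by the same split in the lesion; the difference between the 2 libraries was not tested. Other cell types moved with the lesion split: fibroblast genes stood at 8.60 CPM at or below 1% and 1515 above, adipocyte genes at 75.8 and 757 and mammary basal genes at 369 and 685, against 1.40 and 2.69 CPM of fibroblast genes in the tumor parts, and their part in the result was not tested. Of its 1318 cells, 111 lay above 1%, and between its parts 5.59% of 8247 genes were called higher and 0.934% lower, but 0 of 39 members were called, with a median of -0.02. Hspa5 stood at 229.6 CPM at or below 1% and 174 above, and Hsp90b1 at 143 and 256, a log2 ratio of 0.85 that did not reach 2-fold. Finer bins gave the same picture. In the tumor the summed chaperones stood at 842, 539 and 514 CPM in the bins below 0.25%, from 0.25% to 0.5% and from 0.5% to 1%, and at 1827, 2785 and 3435 CPM from 1% to 2%, 2% to 5% and 5% to 20%; without the deepest cells the last 3 were 956, 2041 and 3083. The bin from 1% to 2% held 19 cells. Summed translocon genes stayed between 2048 and 2981 CPM over all 6 tumor bins, and the lesion chaperones between 1165 and 1412.

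**Figure D4:**
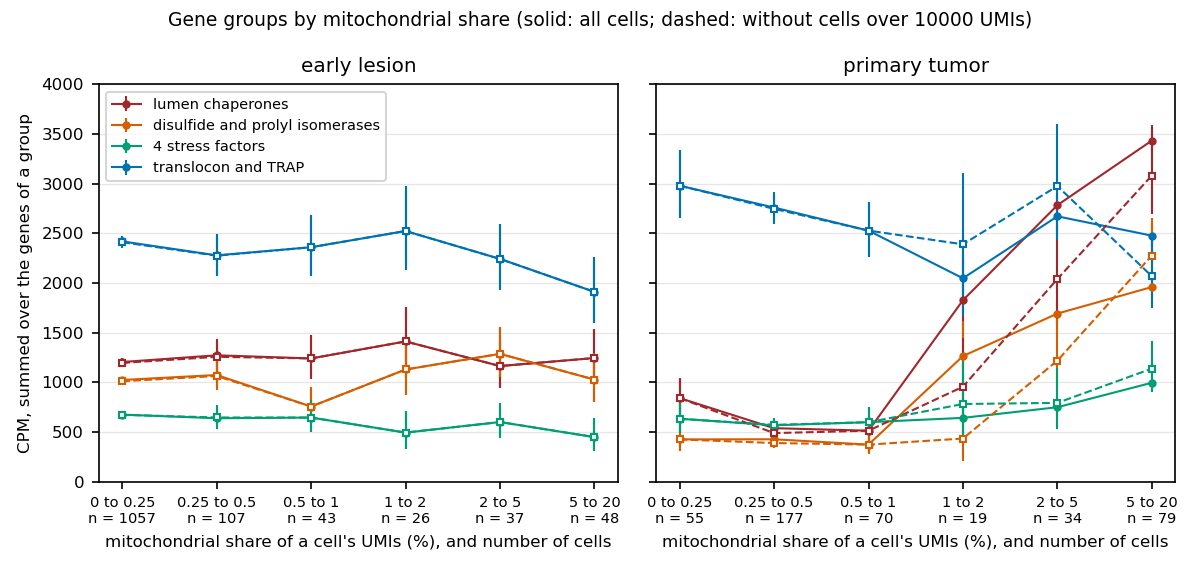
Summed CPM of 4 gene groups in 6 bins of mitochondrial share, for lesion (left) and tumor (right), with the number of cells in each bin, exact 95% intervals, and dashed lines without cells of over 10000 UMIs. Tumor chaperones stood at 514 CPM from 0.5% to 1% and at 3435 from 5% to 20%, while lesion chaperones kept between 1165 and 1412.

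Against the translocon, the chaperones numbered 21.0 (18.8 to 23.4) per 100 UMIs in tumor cells at or below 1% and 122 (116 to 128) above it, or 102 (87.1 to 120) above it without the deepest cells. In the lesion the same parts gave 50.2 and 57.0 (48.8 to 66.5). The 4 stress factors per 100 translocon UMIs went from 21.2 to 34.5 in the tumor, and from 21.4 to 41.4 without the deepest cells. In the lesion they went from 27.9 to 23.6. Chaperones per 100 of the 4 stress factors went from 99 to 352 in the tumor. Without the deepest cells they went from 92.9 (80.6 to 107) to 247 (200 to 306). The lesion moved in the same direction, from 180 (171 to 189) to 242 (192 to 305).

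Other values moved with the split in the tumor. The nuclear RNA Malat1 stood at 240.2 CPM at or below 1% and 6885 above, and at 389 and 8395 CPM in the parts of the lesion. In the tumor parts Aqp5 stood at 771 and 5197 CPM, Car6 at 60.4 and 342, Epcam at 378 and 2578 and Erbb2 at 12.6 and 70.0, while the keratins Krt8 (548 and 539.6) and Krt18 (771 and 919) moved little. The luminal marker list stood at 2574 and 5813 CPM. Median depth was 2005 and 1011.5 UMIs, and the milk genes held 5.92% and 7.06% of UMIs. Coding length moved with it too: across the 40 members the log2 ratio correlated with the log of coding length (Pearson 0.79, Spearman 0.83), and across 7335 genes by 0.48 and 0.49. The median ratio was -0.46 for the 6 members with under 500 coding bases, 1.15 for 14 with 500 to 1000, 2.64 for 18 with 1000 to 2000 and 3.11 for the 2 longest, beside -0.53, -0.36, 0.06 and 1.25 in all genes of those lengths. These genes share their cells and are no independent points. The part of marker levels, RNA quality and length in the result was not tested.

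Of related genes outside the 40, folding, degradation and translocon genes were called higher above 1% more often than the 25.9% of all genes (6.68% were lower), while PERK arm and signal recognition particle genes were near that share. Of ER-associated degradation genes 12 of 18 were called higher and 1 lower (Derl2 2.70), of other folding genes 20 of 24 and 0 (Qsox1 3.10 and Txndc5 2.60, which form or shuffle disulfides), of other translocon and signal peptidase genes 7 of 7 (Sec62 2.53), of other oligosaccharyltransferase genes 4 of 8 and 0 (Magt1 3.32), and of ER to Golgi carriers 16 of 36 and 0 (Lman1 3.55 and Surf4 2.66). Sensors and targets of the PERK arm gave 2 higher and 2 lower of 7, with the Atf4 targets Nupr1 and Ddit4 lower at -1.21 and -1.25. The signal recognition particle and its receptor gave 2 higher and 1 lower of 7.

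Setting equal parts side by side, tumor cells at or below 1% stood below lesion cells at or below 1% for most folding genes, while above 1% all calls were for higher levels in the tumor and most members were not called. At or below 1%, 12.9% of 8548 genes were called higher in the tumor and 11.4% lower, and of 39 members 6 were higher and 17 lower, with a median of -0.88. Calr (-2.19), Hspa5 (-1.85), Hsp90b1 (-1.20), all 5 isomerases and Ddost, Rpn1 and Rpn2 were among the lower, and Sdf2l1, Trib3, Herpud1, Ddit3, Serp1 and Ost4 were the higher. Above 1%, 14.5% of 6800 genes were called higher and 5.68% lower, and of 40 members 8 were higher and 0 lower, with a median of 0.64: Sdf2l1 3.01 (1.65 to 5.52), Herpud1 2.97 (1.61 to 5.48), Trib3 2.53 (0.55 to 8.43), Hspa5 1.95 (1.49 to 2.49), Manf 1.57, Hsp90b1 1.47, Dnajc3 1.42 and P4hb 1.12. Without the deepest cells 6 of 34 were higher and 0 lower, with 11.7% and 8.75% of all genes. Markers of other cell types also differed between the 2 libraries above 1%. Fibroblast genes stood at 1515 CPM in the lesion and 2.69 in the tumor. Adipocyte genes stood at 757 and 10.8, and mammary basal genes at 685 and 21.5. Their part in the result was not tested.

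Herpud1 was the only member called higher in the tumor in all 5 of these selections of cells (all cells, without the deepest, at or below 1%, above 1%, and above 1% without the deepest). Sdf2l1 and Trib3 were called higher in 4 of them and had under 20 counts in the fifth. These selections share the same lesion and tumor libraries, so they are not separate evidence.

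In the tumor, lumen chaperones and isomerases stood higher in cells with more milk protein RNA. Of the stress factors there, Xbp1 alone was called, and only over all cells. In the lesion most members also stood higher in such cells, but few were called. Cells of each library were put in tertiles by the milk genes' share of their UMIs. The median shares were 5.24%, 13.5% and 21.8% in the lesion and 1.94%, 5.01% and 10.6% in the tumor. Wfdc18 gave 67308 of the 120752 milk UMIs in the tumor, Csn3 28524 and Csn2 117. In the lesion, Csn2 gave 205665 of 598333, Wfdc18 44024 and Csn3 39669. The tertiles of tumor and lesion thus rested largely on different milk genes. Member levels are given here as CPM of the UMIs that were neither milk nor mitochondrial. In the tumor Hspa5 stood at 171, 549 and 633 CPM from the lowest to the highest tertile, a log2 ratio of highest to lowest of 1.88 (1.52 to 2.28). Hsp90b1 stood at 186, 596 and 638, and Manf at 174, 361 and 530.3. All 3 were lowest in the tertile with the least milk RNA, and for Hspa5 and Hsp90b1 most of the step lay between the lowest and the middle tertile.

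Of 5948 genes compared between the tumor tertiles, 9.67% were called higher in the highest and 2.42% lower, and of 37 members 20 were called higher and 0 lower, with a median of 1.0 beside 0.00 in all genes. Chaperones gave 10 of 10 (median 1.46), isomerases 3 of 5, translocon genes 3 of 8 and stress factors 1 of 4. That stress factor was Xbp1, at 370.0, 543 and 744 CPM or 1.0 (0.74 to 1.28); its call was lost without the deepest cells (0.66), at or below 1% mitochondrial share (0.46) and above it (0.92). Herpud1 stood at 96.8, 108 and 128 and Atf4 at 137, 111 and 146, and neither was called. Without the deepest cells 19 of 32 members were higher and 0 lower, where 5.56% and 4.14% of genes were.

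In the lesion, 2.37% of 7170 genes were called higher in the highest tertile and 5.68% lower, and of 38 members 3 were higher and 1 lower, with a median of 0.45 beside -0.05. Xbp1 stood at 340.1, 627 and 756 CPM, or 1.15 (0.97 to 1.34), Ddost at 97.3, 165 and 199, and Sdf2l1 at 17.1, 25.3 and 35.9. Herpud1 went the other way, at 29.1, 18.4 and 13.7, or -1.07 (-2.07 to -0.16), on 29, 21 and 16 UMIs. The Herpud1 call ended without the deepest cells (-0.95), with caseins alone (-0.85) and with cells thinned to 1000 UMIs. With scaling to all UMIs 0 members were called higher (Xbp1 0.86, Sdf2l1 0.76), and without the deepest cells 2 were higher and 0 lower, where 2.23% and 5.76% of genes were. Hspa5 (227, 253 and 319) and Hsp90b1 (178, 180.0 and 173) were not called. Of the 38 members, 29 lay above a ratio of 1, beside 3251 of the 7170 genes. Summed chaperones stood at 1243, 1433 and 1607 CPM over the lesion tertiles, and summed translocon genes at 2301, 2782 and 3370.

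Above 1% mitochondrial share, the number of members called in the tumor depended on whether the deepest cells were counted. Among tumor cells at or below 1% mitochondrial share, 14 of 28 members were higher in the highest milk tertile and 0 lower (5.25% and 4.05% of all genes), with Manf at 60.6, 147 and 445 CPM, Sdf2l1 at 26.0, 48.9 and 132 and Hspa5 at 34.7, 44.5 and 128. Above 1%, 3 of 37 were higher and 0 lower (3.78% and 2.79%), namely Hspa5 (1.16), Hsp90b1 (1.24) and Sec61a1 (1.10). Of these 37, 31 lay above a ratio of 1, as did 10 of 10 chaperones, with median log2 ratios of 0.35 and 0.82. Of all 3972 genes, 1901 did, with a median of -0.02. Without the deepest cells, the cells above 1% gave 14 of 20 members higher and 0 lower (9.89% and 5.02% of 637 genes), with a median of 1.70, and 4 of 4 chaperones and 3 of 3 isomerases that had enough counts. Hspa5 then stood at 287, 626 and 1135 CPM and Manf at 95.6, 370 and 896. Malat1 stood at 14603, 313 and 448 CPM in these tertiles, and its part was not tested. Chaperones per 100 translocon UMIs went from 10.1 through 16.3 to 35.0 over the tertiles at or below 1%, and from 76.3 through 132 to 129 above it, against 54.0, 51.5 and 47.7 in the lesion. The difference between the parts or the libraries was not tested.

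**Figure D5:**
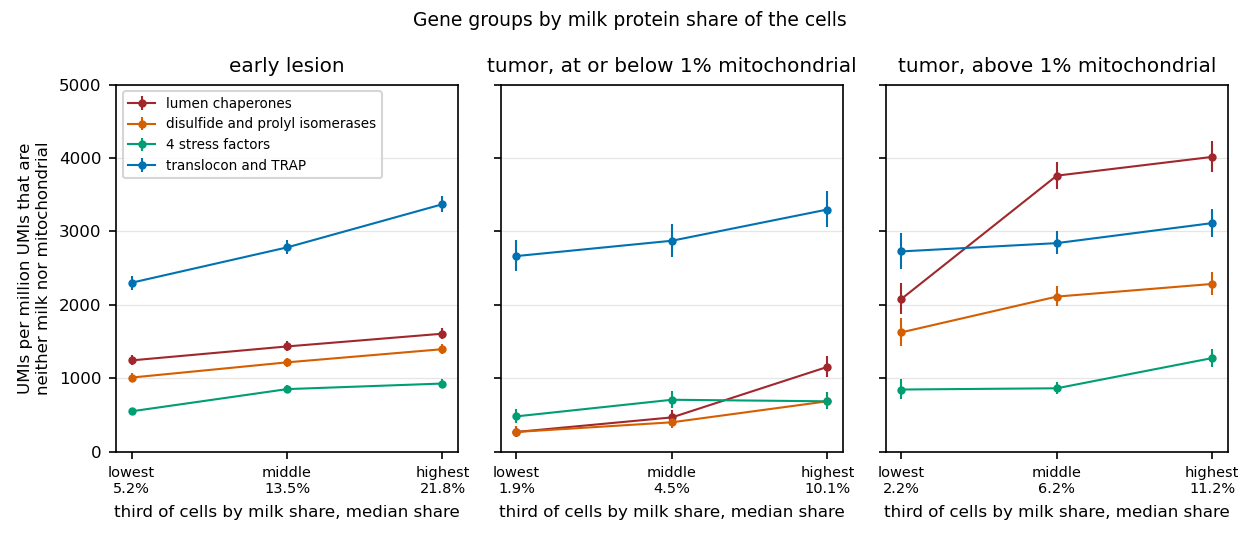
Levels of 4 gene groups as CPM of the UMIs that are neither milk nor mitochondrial, in tertiles of cells by milk share, for the lesion and for tumor cells at or below and above 1% mitochondrial share, with exact 95% Poisson intervals. Tumor chaperones at or below 1% stood at 269, 467 and 1154.5, and lesion chaperones at 1243, 1433 and 1607.

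Over single cells, the Spearman correlation of the milk share with the members' summed share was 0.37 in the lesion (1318 cells) and 0.42 in the tumor (434 cells). For chaperones alone it was 0.15 and 0.33, for the 4 stress factors 0.26 and 0.07, and for translocon genes 0.32 and 0.22. Cells of 1 library share its free RNA, and milk share itself correlated with depth by 0.23 in the lesion and -0.04 in the tumor. With all cells, Malat1 rose over the tertiles in the tumor, at 2235, 4489 and 6636 CPM of the same UMIs. In the lesion it fell, at 2501, 346 and 254. Without the deepest cells it fell over the tumor tertiles too, at 1861, 584 and 409. The part of Malat1 in the result was not tested.

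In the lungs, where the sorted cells carried mostly lung epithelial genes, the members differed from the mammary libraries gene by gene rather than together. Against the lesion, 22.1% of 8776 genes were called higher in the early lung and 11.9% lower, and of 39 members 6 were higher and 6 lower, with a median of -0.17. Sec61a1 (309 CPM against 54.5) gave the largest ratio, 2.51 (2.08 to 2.92), followed by Ddit3 (1.78), Herpud1 (1.74), Selk (1.40), Dnajc3 (1.37) and Hsp90b1 (1.08). Xbp1 was lowest at -2.37 (-3.14 to -1.76), with Ssr1, Rpn1, Ssr2, Ssr4 and Atf4 between -1.88 and -1.08.

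Against the tumor, 20.6% of 8740 genes were called higher in the late lung and 17.4% lower, and of 40 members 3 were higher (Ddit3 1.39, Sec61a1 1.28 and Selk 1.0) and 6 lower (Sdf2l1 -1.95, Xbp1 -1.90, Sec11c -1.57, Ssr4 -1.54, Serp1 -1.13, and Trib3, with 0 UMIs against 79, at least 5.94-fold lower). Without the deepest cells of both libraries 11 of 38 were higher and 5 lower, where 19.4% and 20.1% of genes were. Tissue and library cannot be told apart in either comparison.

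Between the lungs, 8.7% of 4552 genes were called higher in the late lung and 3.45% lower, and of 36 members 6 were higher and 0 lower: Manf (138 against 294 CPM, 1.08), P4hb 1.61, Dnajb9 1.59, Ssr1 1.63, Rpn1 1.70 and Creld2, with 1 UMI against 23, at 2.95 (0.88 to 8.87). Most of these had under 10 early lung UMIs. Erythroid genes moved with this comparison, from 417 CPM in early to 15926 in late lung (27040 without the deepest cells), as did endothelial genes (3520 and 5966) and fibroblast genes (1439 and 434), and their part in the result was not tested. In the late lung, 8 cells of over 10000 UMIs held 42.2% of UMIs, and without cells of that depth 2 of 33 members were higher and 0 lower, with 4.32% and 4.26% of genes.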

How the data were processed

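The deposited values were raw UMI counts per gene and barcode for 737280 barcodes in each of 4 matrices, a unit read from the file headers and values. Per the submitters' processing notes, the build used by the authors was mm10. The aligner, counter and annotation are not given in the sources used here, nor is the handling of reads from near-identical gene copies. Cells were barcodes with at least 500 UMIs, 250 genes and at most 20% mitochondrial UMIs. Doublets were kept and no caller was run; an alternative left out cells of over 10000 UMIs. Counts were summed over cells and scaled to CPM; ratios used 0.5 added counts, exact conditional 95% binomial intervals, at least 20 counts and 2-fold. A count of 0 was bounded at 3 counts over the sum. Library totals were 743765 (early lung), 1070236 (late lung), 6366768 (lesion) and 3403140 (tumor) UMIs, of which called cells held 203676, 412032, 3926447 and 1825842. Python 3.11.15, numpy 2.4.6, scipy 1.17.1 and pandas 2.3.3 were used, and the ratio code was tested on simulated data. Gene positions and coding lengths are from GENCODE M21.

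The members and lists were chosen with earlier results of these data known. Values in full were given for 29 members: the 6 highest and 6 lowest in tumor against lesion by the interval bound nearest a ratio of 1, Xbp1, Ddit3, Atf4 and Herpud1, and the 3 of each role with most counts; of each pathway list up to 4 genes were named by the same bound, leaving out those with 3 or fewer counts on one side. Chosen after the values were seen were the other members named, the mitochondrial split of the lesion, the comparison above 1% in both, the mitochondrial bins, the comparison of the deepest cells, the milk tertiles within tumor parts (with and without the deepest cells), the alternatives for the lung pair, the coding-length description and the count over selections.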

Additional observations from a re-analysis of the deposited data

How the results depend on the processing

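Of 10 members called higher and 0 lower in tumor against lesion, 6 were higher under scaling without milk and mitochondrial UMIs, 5 under median-of-ratios scaling, 6 and 8 lower without cells of over 10000 UMIs, 6 and 2 lower with equal weight per cell, 4 and 4 lower with cells thinned to 1000 UMIs, 6 and 17 lower at or below 1% mitochondrial share in both, and 6 higher above 1% in both without the deepest cells. Hsp90b1 turned to -0.42 without the deepest cells and -1.20 at or below 1%, and Dnajc3 to -0.73 at or below 1%. Median-of-ratios scaling moved the median of all genes from 0.33 to 0.09, and the shares called from 24.5% higher and 6.68% lower to 19.3% and 9.53%. Other UMI minimums, a mitochondrial limit of 10%, 5 added counts and other count minimums kept the count within 1.5 times. In the tumor parts, the 1 lower member became 0 without the deepest cells and 0 under median-of-ratios scaling (all-gene median 0.59 instead of 0.06). Without the deepest cells, 3 higher members of late lung against tumor became 11, and 6 of late against early lung became 2. Chaperones per 100 translocon UMIs, without the chaperone with most counts in each, were 61.7 (early lung), 88.0 (late lung), 37.6 (lesion), 62.9 (tumor), 13.8 (tumor at or below 1%) and 93.5 (above 1%). With all 11 chaperones but without the deepest cells, they were 31.3 in the tumor and 102 above 1%. For the milk tertiles of the lesion, 3 higher became 0 with scaling to all UMIs and 1 at or below 1% mitochondrial share, and 1 lower became 0 with caseins alone, 0 without the deepest cells and 0 when thinned; for the tumor, 20 higher became 13 with scaling to all UMIs and 3 above 1% mitochondrial share, and 0 lower became 1 with caseins alone. Apart from settings that leave out cells, the causes were not tested. No paired analysis was possible because each group has 1 library. Counts in low members (Hyou1, Atf6, Trib3, Ddit3) and in the lungs limit what could be called.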

Other observations

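Members were also set against the free RNA of their own library. In the tumor 35 of the 40 genes had a higher share of UMIs in called cells than in droplets with 1 to 50 UMIs, against 18 in the lesion, 21 in late lung and 22 in early lung. The 40 genes held 0.746% of the tumor's free RNA and 0.939% of UMIs in all its called cells, but 0.672% in called cells without the deepest. Above 1% mitochondrial share they held 1.16% of UMIs in the deepest cells and 1.04% in the shallower. At or below 1% they held 0.613%. The tumor excess over free RNA thus lay in cells above 1%, deep or shallower. The count of 35 was not repeated without the deepest cells. The share of a gene's tumor UMIs that lay in the 18 deepest cells was 36.1% for Serp1, 44.0% for Sec61g, 45.6% for Atf4 and 49.4% for Trib3, below their 54.5% share of all UMIs, and 64.8% for Xbp1 and 67.0% for Herpud1.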
